A study of Mus musculus with 28 samples.

Results

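Mitotic and meiotic stages of male germ cell development were compared in mice that lack Scml2: c-Kit+ spermatogonia, which divide by mitosis, and pachytene spermatocytes (PS), which are in meiotic prophase. The members are the 4 libraries labelled Scml2-KO that profiled acetylated lysine 27 of histone H3 (H3K27ac) in these cells, 2 PS and 2 c-Kit+, out of 28 libraries in all. Peaks of the 4 libraries merged into 92043 regions, and 91158 were left once regions called in any of the 16 input libraries were removed. Of these, 17027 lay within 1000 bp of a listed transcription start and are called promoter regions, and 74131 are called distal. All mice had a C57BL/6 strain background. The c-Kit+ cells came from the testes of Scml2-KO mice at postnatal day 7 and the PS from those of adult Scml2-KO mice, so stage and age cannot be told apart. The labels name sedimentation (STA-PUT) and magnetic sorting (MACS) for the isolation, without saying which cells were isolated by which. No H3K27ac library of wild-type (WT) PS was analysed here, so every statement on this transition is about Scml2-KO cells. Nothing in the labels says that replicates came from separate mice, and p-values then measure only the spread between these samples.

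H3K27ac marks active promoters and enhancers. Spermatogonia carry the receptor Kit as they differentiate and then enter meiosis, where homologous chromosomes pair along the synaptonemal complex, recombine, and where the X and Y chromosomes are silenced together. Spermatocytes begin to transcribe many genes used only later, in spermatids, and long intergenic precursors of pachytene piRNAs, the small RNAs that partner PIWI proteins. A-MYB, the product of Mybl1, and RFX2 are transcription factors known to drive much of that programme. SCML2 is a germline Polycomb group protein, and its gene lies on the X chromosome.

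The PS libraries held 69042 and 64056 peaks and the c-Kit+ libraries 36362 and 22949. Read depth is unknown. The background height that enters each fold enrichment rises with depth. It was 1.62 and 0.876 in PS and 1.11 and 0.715 in c-Kit+ cells. PS replicate 2 held more peaks than c-Kit+ replicate 1 at a lower background. The part of depth in the peak numbers was not tested. Within a group, fold enrichments over shared regions ranked alike, with Spearman coefficients of 0.955 in PS and 0.857 in c-Kit+ cells across regions, which are not independent replicates. Between PS and c-Kit+ libraries of the same number the coefficients were 0.788 (replicates 1) and 0.719 (replicates 2). Markers of the labelled cells were looked at first. All 8 markers of pachytene spermatocytes (Sycp3, Ccna1, Hspa2, Ldhc, Pgk2, Piwil1, Mybl1, Ybx3) had a promoter peak in both PS libraries, and their summed fold enrichment was 171 and 218 in PS and 27.4 and 20.99 in c-Kit+ cells. Of the 6 markers of c-Kit+ spermatogonia, Kit and Ccnd2 were called in both c-Kit+ libraries and Stra8 in replicate 1, while Sohlh1, Sohlh2 and Dmrtb1 were called in neither. Their summed fold enrichment, 20.8 and 9.91 in c-Kit+ cells, was lower than the 51.1 and 38.9 in PS, so H3K27ac at these promoters does not mark the c-Kit+ libraries apart. At Scml2 itself the promoter gave a weak peak of 3.05 and 4.27 in PS and of 4.26 in c-Kit+ replicate 1, which does not test the genotype.

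Promoters were the first comparison: which of them gained and which lost acetylation between the mitotic and the meiotic stage. Of 17027 promoter regions, 9263 (54.4%) were called in all 4 libraries, 2564 (15.1%) in both PS and neither c-Kit+ library, and 78 (0.458%) in both c-Kit+ and neither PS library. Over all regions the last 2 classes made up 21.2% (19293) and 0.799% (728). The 9263 were tested with limma on log2 fold enrichment, each library centred on its median, at a Benjamini-Hochberg adjusted p under 0.05 over all 12290 regions called in all 4 libraries. Against the median region, 784 promoters (8.46%) rose and 1432 (15.5%) fell in PS. Over all tested regions 876 (7.13%) were higher and 3014 (24.5%) lower, 31.7% in all. Before centring the median log2 fold enrichment at tested promoters was 4.28 and 4.34 in PS and 3.38 and 3.03 in c-Kit+ cells, a difference of 1.11 (2-sided exact permutation p = 0.333, the smallest that 2 against 2 allows). A fall thus often means a smaller gain: of the 1432 promoters called lower, 113 had both deposited PS values below both c-Kit+ values, and 595 had both above them. The split depended on the scaling. With quantile normalization 243 of all tested regions were higher and 242 lower, and without centring 8808 were higher and 86 lower. With c-Kit+ replicate 2 left out no region passed by limma, while 5653 of the 16624 regions then tested had an unadjusted p under 0.05 (5152 of 12290 with all 4 libraries).

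**Figure D1:**
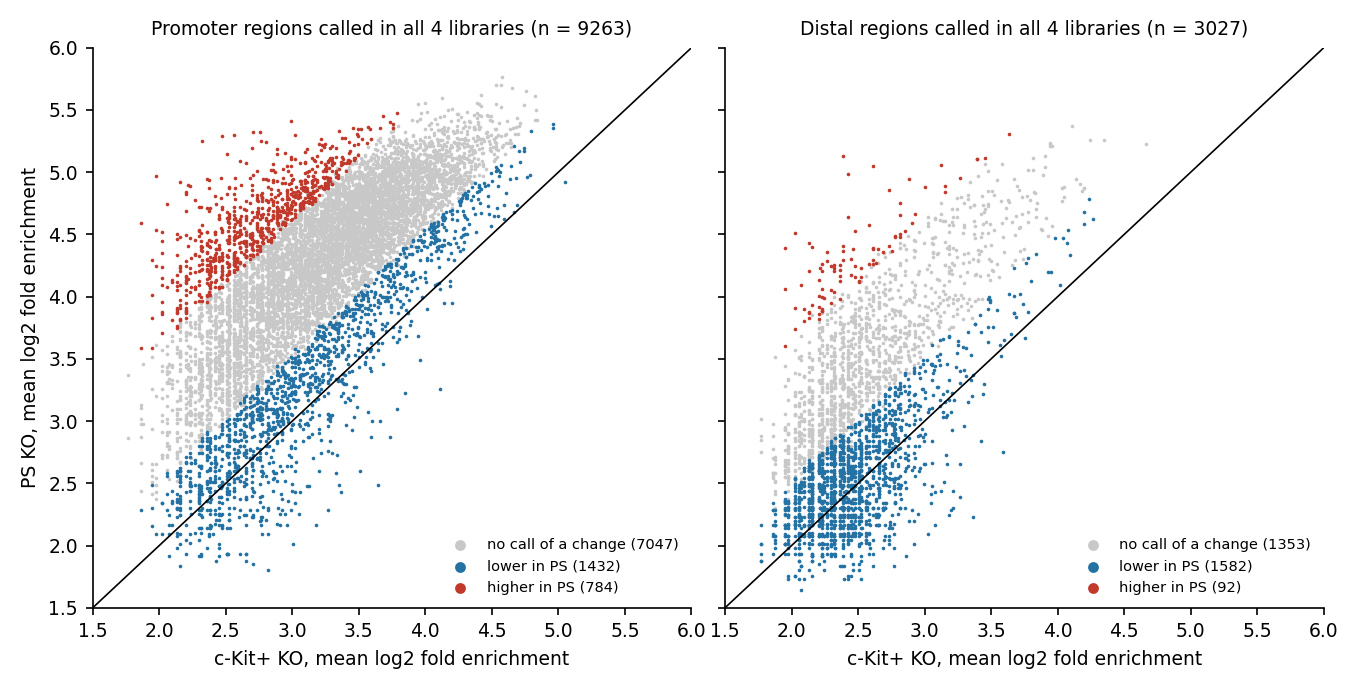
Mean log2 fold enrichment of each region called in all 4 libraries, c-Kit+ KO on the x axis and PS KO on the y axis, for 9263 promoter regions (left) and 3027 distal regions (right). Red and blue points are regions higher or lower in PS by limma on values centred within each library, and the line marks equal deposited values. Most promoters lie above the line, and 52.3% of distal regions are called lower against 15.5% of promoters.

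The largest promoter rises, 5 named by centred change among regions whose deposited values did not overlap, lay at Tuba3a, Gstt2, 1700001L05Rik, Mroh1 and Usp2. At Tuba3a, which encodes an alpha tubulin (chromosome 6, 125284997 to 125286830), fold enrichment was 28.2 and 34.7 in PS and 3.78 and 4.08 in c-Kit+ cells, a centred log2 change of 1.92 (SE 0.213, limma adjusted p = 0.000111). At Gstt2, a glutathione transferase gene (chromosome 10, 75832721 to 75841512), the values were 33.6 and 43.2 against 6.15 and 4.08, a change of 1.85 (SE 0.201, limma adjusted p = 0.000111). At Usp2, which encodes a deubiquitinase (chromosome 9, 44083270 to 44087396), they were 33.9 and 45.9 against 8.51 and 4.08, a change of 1.67 (SE 0.241, limma adjusted p = 0.000312). That the groups do not overlap here follows from how the regions were chosen. 1700001L05Rik and Mroh1 had PS values from 28.2 to 43.7 and c-Kit+ values from 3.78 to 7.57. Of the 784 promoters that rose, 194 also rose under quantile normalization, among them Tuba3a, Gstt2, Boll, Tcp11, Hspa4l and Ybx2. Usp2 was not among the 194.

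The largest promoter falls, chosen likewise among regions whose deposited values did not overlap, were at Spats2l, Cnrip1, Lamb1, Zfp462 and Met. The Spats2l promoter (chromosome 1, 57774354 to 57775831) had values of 5.34 and 5.87 in PS and 12.8 and 12.2 in c-Kit+ cells, and its change of −2.24 had an SE of 0.197. At Lamb1, which encodes a laminin chain of the basement membrane (chromosome 12, 31264884 to 31266519), the values were 4.19 and 4.80 in PS and 12.8 and 6.41 in c-Kit+ cells (log2 change −2.09, SE 0.224, limma adjusted p = 0.000111). At Met, the receptor of hepatocyte growth factor (chromosome 6, 17463368 to 17464707), they were 4.96 and 4.80 against 12.3 and 7.58 (log2 change −2.06, SE 0.199, limma adjusted p = 0.000111). At Lamb1 and Met the c-Kit+ replicates differed from each other by more than the PS replicates did. Promoter peaks at markers of somatic testis cells were present in both cell populations and are given with the gene lists.

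Promoters called in both PS libraries and in neither c-Kit+ library reached high values. By the lower of their PS values the first 5 were Gm10619 (38.9 and 53.9), Mroh4 (36.2 and 53.3), Gm6567 (34.7 and 44.3), the region listed under Gm1564 that also holds the start of Meioc (39.3 and 34.7), and Ldhal6b (30.9 and 34.7). All of these were called in both KO round spermatid (RS) libraries and in no wild-type spermatogonial library. The region that holds the start of Meioc was also called in 1 Thy1+ KO library, and the others in neither. Meioc is needed for spermatogonia to settle into meiotic prophase, and Ldhal6b encodes a lactate dehydrogenase-like protein. The median over the 2564 regions was 6.48 and 5.87, below the 19.5 and 20.3 of promoters called in all 4 libraries, and 22.0% and 21.1% reached 10. The promoters called only in both c-Kit+ libraries were weak: their medians were 5.20 and 4.66 and none of the 78 reached 10 in either library. The highest, Dleu7 (6.62 and 6.41), Dnm3os (6.15 and 6.41), Palm2 (7.09 and 5.83), C1qtnf7 (8.99 and 5.83) and Tpm1, a tropomyosin gene (7.09 and 5.83), were 371 to 1184 bp long. The C1qtnf7 region (chromosome 5, 43515495 to 43516600) lies beside a distal C1qtnf7 region (43516662 to 43518506) called in all 4 libraries. That neighbour had 5.72 and 6.93 in PS and 9.93 and 9.33 in c-Kit+ cells. In both RS KO libraries Dleu7, Palm2 and C1qtnf7 were called, against 8.97% of the 78, with Tpm1 in 1 and Dnm3os in neither. Presence of a peak depends on how many peaks a library holds. With the same number of strongest peaks in each library (22949), 1323 promoters were called only in both PS and 237 only in both c-Kit+ libraries.

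**Figure D2:**
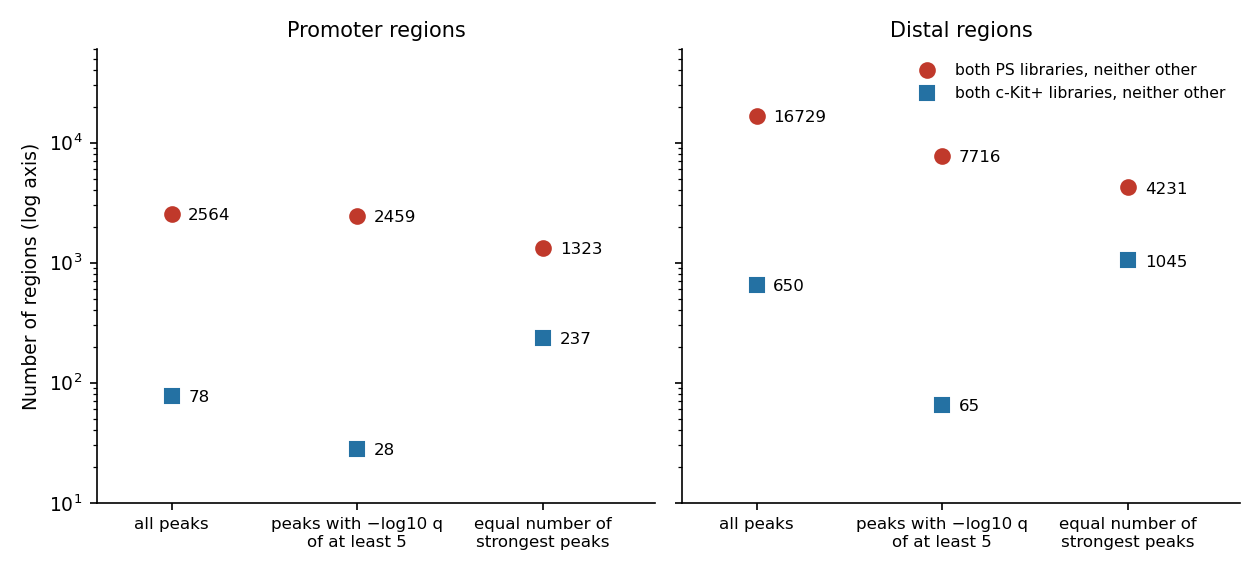
Number of regions (log axis) called in both libraries of a stage and in neither of the other, for promoter (left) and distal (right) regions, with all deposited peaks, with peaks of a −log10 q of at least 5, and with the same number of strongest peaks in each library. PS regions outnumber c-Kit+ regions in all of them, by 2564 to 78 and by 1323 to 237 at promoters.

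The promoter sequences of 8 such genes are shown because the classes differed in base composition and in short motifs. Each line gives the 250 bases before the start, 5′ to 3′, from the RefSeq promoter table of GRCm38.p6, with capitals on AACTG, the core of the MYB family site, and on GTTGCC, the core of an RFX site, on either strand. Tuba3a (chromosome 6, 125286082 to 125286331, − strand) and Tcp11 (chromosome 17, 28080640 to 28080889, − strand) rose. Meioc (chromosome 11, 102665335 to 102665584, + strand), Ldhal6b (chromosome 17, 5418768 to 5419017, − strand), Ldhc (chromosome 7, 46861013 to 46861262, + strand) and Pgk2 (chromosome 17, 40208610 to 40208859, − strand) were called only in PS. Met (chromosome 6, 17463707 to 17463956, + strand) and Lhcgr (chromosome 17, 88792015 to 88792264, − strand) fell.
Tuba3a: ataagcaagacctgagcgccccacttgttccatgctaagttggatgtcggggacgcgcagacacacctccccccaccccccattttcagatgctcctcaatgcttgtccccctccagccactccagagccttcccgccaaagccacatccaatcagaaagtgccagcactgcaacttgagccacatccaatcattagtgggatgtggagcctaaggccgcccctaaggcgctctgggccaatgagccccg
Tcp11: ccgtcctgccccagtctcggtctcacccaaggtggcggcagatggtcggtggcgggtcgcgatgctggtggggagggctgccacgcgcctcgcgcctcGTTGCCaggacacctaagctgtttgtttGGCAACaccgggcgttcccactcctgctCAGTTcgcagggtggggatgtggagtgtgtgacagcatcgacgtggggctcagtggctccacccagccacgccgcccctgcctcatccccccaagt
Meioc: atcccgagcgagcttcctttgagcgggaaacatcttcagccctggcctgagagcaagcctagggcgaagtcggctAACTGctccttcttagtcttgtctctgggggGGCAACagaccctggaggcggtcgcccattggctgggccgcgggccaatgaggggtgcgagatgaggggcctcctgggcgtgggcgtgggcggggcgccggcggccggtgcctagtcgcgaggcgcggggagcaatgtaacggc
Ldhal6b: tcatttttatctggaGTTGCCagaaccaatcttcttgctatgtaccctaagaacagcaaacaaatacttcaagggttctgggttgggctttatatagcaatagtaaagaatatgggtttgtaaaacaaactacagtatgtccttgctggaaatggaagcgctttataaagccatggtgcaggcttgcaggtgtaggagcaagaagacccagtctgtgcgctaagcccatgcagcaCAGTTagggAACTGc
Ldhc: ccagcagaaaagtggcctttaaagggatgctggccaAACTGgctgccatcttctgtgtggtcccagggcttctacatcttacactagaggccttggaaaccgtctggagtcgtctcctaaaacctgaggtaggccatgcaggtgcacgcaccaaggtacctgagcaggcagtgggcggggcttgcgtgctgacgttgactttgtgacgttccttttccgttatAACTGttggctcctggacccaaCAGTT
Pgk2: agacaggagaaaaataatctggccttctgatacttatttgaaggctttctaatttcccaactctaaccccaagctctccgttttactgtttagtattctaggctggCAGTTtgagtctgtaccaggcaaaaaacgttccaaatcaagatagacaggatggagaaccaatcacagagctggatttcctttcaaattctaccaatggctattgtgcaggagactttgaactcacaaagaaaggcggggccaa
Met: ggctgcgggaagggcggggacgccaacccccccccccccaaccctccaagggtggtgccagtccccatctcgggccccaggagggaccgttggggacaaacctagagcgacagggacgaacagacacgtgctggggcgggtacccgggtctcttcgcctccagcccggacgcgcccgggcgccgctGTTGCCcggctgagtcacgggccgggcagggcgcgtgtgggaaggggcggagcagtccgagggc
Lhcgr: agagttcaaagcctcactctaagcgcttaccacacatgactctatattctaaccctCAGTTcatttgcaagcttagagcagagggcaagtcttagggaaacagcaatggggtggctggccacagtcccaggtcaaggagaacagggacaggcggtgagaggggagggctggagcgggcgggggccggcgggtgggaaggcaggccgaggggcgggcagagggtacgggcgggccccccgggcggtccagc

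In these stretches Tuba3a holds neither core, Tcp11 holds 2 RFX cores and 1 MYB core, Meioc 1 of each, Ldhal6b 1 RFX core and 2 MYB cores, Ldhc 3 MYB cores and Pgk2 1. Of the genes that fell, Met holds 1 RFX core and Lhcgr 1 MYB core. In 300-base windows (250 before to 50 after the start), of which the table holds 32851 for 27025 genes, GTTGCC on either strand was found in 18.4% of 1804 windows of PS-only promoters and 18.0% of 1025 windows that rose, in 8.23% of 1422 that fell, in 12.3% of 8450 with no call of a change, and in 12.5% of all windows. AACTG was found in 51.2% of PS-only windows, 39.0% of those that rose, 37.5% of those that fell, 34.2% of those with no call of a change and 44.8% of all. Windows with no region held it in 50.7% of cases, close to the PS-only share. CCAAT, the letters bound by NF-Y, was in 49.2% of windows that rose, 30.5% of those that fell and 37.3% of those with no call of a change (37.4% of all). TGACG, from the cyclic AMP response element, was in 37.1% of windows that rose, 22.4% that fell, 17.7% of PS-only windows and 36.5% of windows with no call of a change (20.8% of all). The GC box GGGCGG was in 71.1%, 62.0%, 36.5% and 69.4% of the same windows (35.7% of all), so for both of these motifs the windows that rose were close to those with no call of a change. PS-only promoters had a lower ratio of observed to expected CpG, with a median of 0.39, than promoters that rose (0.81), fell (0.69) or had no call of a change (0.82), close to the 0.38 of all windows. Among the printed PS-only stretches, Ldhal6b, Pgk2 and Ldhc hold 2, 3 and 8 CG dinucleotides but Meioc 22. Tuba3a and Tcp11 hold 8 and 19, and Met and Lhcgr 24 and 12. The motifs share letters with base composition, which differs between the classes, and a match is a description of the letters only.

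Distal regions were compared next. They made up most of the regions called only in PS: 16729 of 74131 distal regions (22.6%) were called in both PS and neither c-Kit+ library, and 650 (0.877%) in both c-Kit+ and neither PS library. The PS libraries had 47398 and 39690 called distal regions and the c-Kit+ libraries 17136 and 6562, against 15327 and 14149 and 11234 and 9599 promoter regions. The promoter share of called regions was therefore 24.4% and 26.3% in PS and 39.6% and 59.4% in c-Kit+ cells (difference −24.1 percentage points, 2-sided exact permutation p = 0.333). With equal numbers of strongest peaks it was 52.9% and 52.8% in PS and 54.5% and 58.9% in c-Kit+ cells, a difference of −3.87 points. Only 3027 distal regions (4.08%) were called in all 4 libraries. Among them 92 (3.04%) rose and 1582 (52.3%) fell against the median region, 55.3% in all, where the promoter figure was 23.9%. This contrast depended on the scaling: with quantile normalization 2.58% of distal and 1.77% of promoter regions fell, and the promoter median change exceeded the distal one by 0.12 in place of 0.55 (0.30 with equal numbers of peaks). The interquartile range of log2 fold enrichment over all tested regions was 1.287 and 1.385 in PS and 1.0 and 0.9175 in c-Kit+ cells. Centring keeps this difference in spread, and quantile normalization removes it. Its part in the contrast was not tested. On the deposited scale, 212 of the 1582 had both PS values below both c-Kit+ values and 482 had both above. Among regions called in all 4 libraries, the median distal region gained less than the median promoter. Its log2 fold enrichment was 2.86 and 2.90 in PS and 2.62 and 2.39 in c-Kit+ cells. The gap between promoter and distal medians was 1.42 and 1.44 in PS and 0.76 and 0.64 in c-Kit+ cells (exact permutation p = 0.333). The gap was thus wider in both PS libraries than in either c-Kit+ library. Regions without a c-Kit+ call, such as the 16729 distal ones called only in PS, could not enter these medians. By the class of location in the deposited tables, where 16864 regions are promoters, intronic regions had the largest share called lower, 64.0% of 1301, against 49.7% of 780 intergenic, 39.3% of 405 exonic and 37.2% of 575 upstream regions. Introns also held 57.4% of all regions called only in c-Kit+ cells and 35.9% of all those called only in PS, promoters included, against 41.1% of all regions.

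Named distal rises lay in an intron of Meig1, upstream of Foxj2 and Hspa12a, in an exon of Msl3l2 and near Tgds. Meig1 encodes a protein needed to build the sperm tail. In its intron (chromosome 2, 3417704 to 3421521) fold enrichment was 32.0 and 38.4 in PS and 5.20 and 5.25 in c-Kit+ cells, a centred log2 change of 1.67 (SE 0.204, limma adjusted p = 0.000158). Upstream of Foxj2, a forkhead factor gene (chromosome 6, 122800255 to 122803418), the values were 29.0 and 34.7 against 6.15 and 4.66 (log2 change 1.49, SE 0.192, limma adjusted p = 0.000205). These regions too were chosen for values that do not overlap. Of the 92 distal rises, 88 (95.7%) were also called in both RS KO libraries, against 60.6% of all 3027 distal regions called in all 4 libraries.

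Distal falls were led by intronic regions of Lsp1, Igf2r and St5, an exonic region of Pam and an intergenic one near 2610307P16Rik. In Lsp1, which encodes an actin-binding protein (chromosome 7, 142480696 to 142483054), the values were 4.58 and 4.80 in PS and 11.4 and 9.33 in c-Kit+ cells (log2 change −2.21, SE 0.188, limma adjusted p = 0.000111). In Igf2r, whose product is the receptor that clears insulin-like growth factor II (chromosome 17, 12723681 to 12725489), they were 3.81 and 4.80 against 7.57 and 8.75 (log2 change −2.004, SE 0.223, limma adjusted p = 0.000111). Regions called only in c-Kit+ cells were led by Srgap1 (8.51 and 7.00), Rtn4 (8.04 and 7.00), Col4a2, a collagen IV chain gene (6.62 and 8.16), Arsj (7.57 and 6.41) and Mgmt, a DNA repair gene (6.62 and 6.41). None of the 650 reached 10 in either library. They lay farther from a listed start, at a median of 31149 bp, than distal regions called only in PS (19299 bp) or all distal regions (18942 bp).

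The strongest distal regions called only in PS lay near Gnal (39.7 and 51.7), Dync1i2 (37.4 and 53.3), Dlg5 (36.2 and 42.7), Fgf2 (35.1 and 54.4) and Prkcb (34.3 and 49.1). The highest values over all distal regions called only in PS were 39.7 and 54.4, near the 39.3 and 53.9 of promoters called only in PS and below the 49.6 and 59.7 of promoters called in all 4 libraries. The median distal region called only in PS had 4.96 and 4.80. Some were very wide. The widths that follow were examined after the values were seen. Of the 19293 regions called only in PS, 59 exceeded 5000 bp and 11 exceeded 10000 bp, and of the 728 called only in c-Kit+ cells none exceeded either. Of the 12290 regions called in all 4 libraries, 337 and 15 exceeded these lengths. The widest of the 11, an intergenic region near Tspan11 (chromosome 6, 127779555 to 127811641), spanned 32.1 kb with fold enrichments of 26.3 and 37.9. Near Grm4, 3 intergenic regions of 15981, 13434 and 13196 bp followed each other between 27292522 and 27342325 of chromosome 17, with values from 9.53 to 20.97. Near C2cd4b, 2 regions of 14.6 and 11.2 kb adjoined between 67710250 and 67736158 of chromosome 9, with 27.5 and 31.5 in the first and 31.7 and 43.2 in the second. The promoter regions of Gm10619 and Mroh4 named above were 14.4 and 13.4 kb wide. All 11 were called in both RS KO libraries and in none of the 6 other spermatogonial libraries. Intergenic loci beside Grm4, C2cd4b and Tspan11 are known as sources of pachytene piRNA precursors. No piRNA annotation was used here, and overlap with the precursors was not measured.

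The genes nearest to the most distal regions called only in PS were Chst1 and Kcnk10 (31 each), Soga2 (30), 2210408F21Rik (29) and B130024G19Rik (25, the same number as Trak1). The 31 regions near Chst1 lay within 98.6 kb of chromosome 2 (92499230 to 92597806), covered 49.5 kb and had fold enrichments from 3.05 to 33.1, and 20 of them were also called in both RS KO libraries. Those near Kcnk10 were spread over 188 kb of chromosome 12 (98382726 to 98570298), with 14 in both RS KO libraries. Near Soga2, 2210408F21Rik and B130024G19Rik, 15, 14 and 9 were in both RS KO libraries. Of all distal regions called only in PS, 42.6% were. Distal and promoter calls were set side by side for 17830 genes with a listed start. A distal region called only in PS was nearest to 46.0% of the 894 genes whose promoter rose, 39.7% of the 1392 whose promoter fell and 40.4% of all genes. A distal region called only in c-Kit+ cells was nearest to 0.783% of the genes that rose, 7.54% of those that fell and 2.89% of all.

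Gene lists were then read at their promoters, against all 17830 genes with a listed start, of which 5.01% rose, 7.81% fell, 10.2% were called only in both PS and 0.325% only in both c-Kit+ libraries. A further 3631 had no promoter peak in any of the 4 libraries. No list is tested, and members called in all 4 libraries are those that passed the filter. Of 15 genes of the synaptonemal complex and chromosome axis, 13 (86.7%) were called in both PS libraries and 3 (20.0%) in both c-Kit+ libraries, where 12837 and 10046 (56.3%) of all 17830 genes were. Of the 15, 3 rose, none fell, 6 were called only in both PS libraries and 4 in both PS and c-Kit+ replicate 1, while Rad21l had no peak and Tex11 no listed start. The Sycp1 promoter, of the transverse filament gene (chromosome 3, 102934995 to 102937530), had values of 30.1 and 32.0 in PS and 7.09 and 5.83 in c-Kit+ cells (log2 change 1.19, SE 0.188, limma adjusted p = 0.000501). Syce2 of the central element and Smc1b, a meiotic cohesin gene, were the other rises, with changes of 0.86 and 0.86. The lateral element genes Sycp2 (29.0 and 30.9 in PS, 3.78 in c-Kit+ replicate 1) and Sycp3 (24.4 and 29.3, 5.20 in that library) were called in 1 c-Kit+ library. Syce3 (14.5 and 17.1), Tex12 (13.7 and 11.7), Hormad1 (19.8 and 20.8), Hormad2 (17.2 and 20.8), Rec8 (10.3 and 5.87) and Meioc were in PS only. With equal numbers of peaks 8 of the 15 were called only in PS, against 6.75% of all genes.

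Recombination genes were less uniform. Of 20, 1 rose, 1 fell, 7 were tested without a call, 3 were called only in both PS libraries and 6 in some other pattern. Zcwpw1, which encodes a reader of the marks set by PRDM9, rose (29.7 and 32.5 in PS, 12.3 and 8.16 in c-Kit+ cells, log2 change 0.56, limma adjusted p = 0.0406). Rnf212 (11.8 and 16.5), Mei1 (6.10 and 3.20) and Spata22 (9.15 and 10.7) were called only in PS. Mnd1, a partner in strand exchange, had nearly equal deposited values of 7.25 and 4.80 in PS and 6.15 and 4.66 in c-Kit+ cells. It was called lower after centring (−0.94, limma adjusted p = 0.0062) and had a change of 0.14 without it. Prdm9 was called in all 4 libraries (21.7 and 20.3 in PS, 8.04 and 9.33 in c-Kit+ cells) with no call of a change (limma adjusted p = 0.523).

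Over all members, regulators of the meiotic programme had a larger share of rises than the other lists described here. Of 15, 5 rose and 3 were called only in both PS libraries. Only members called in all 4 libraries can rise. Of those, 5 of 10 rose here, 3 of 3 in the synaptonemal complex list and 1 of 1 in the piRNA list. The difference between lists was not tested. Mybl1 had 24.8 and 27.7 in PS and 5.20 and 5.25 in c-Kit+ cells (log2 change 1.25, limma adjusted p = 0.000575). Sox30, a spermatid transcription factor gene, had 35.1 and 32.5 against 7.57 and 5.25 (log2 change 1.35, limma adjusted p = 0.000301). Boll, for an RNA-binding protein of meiosis, had 27.5 and 32.5 against 6.15 and 3.50 (log2 change 1.61, limma adjusted p = 0.000216). The PS values of these genes lay close together and far above the c-Kit+ values. Hspa2, a chaperone gene of spermatocytes (1.25), and Tcfl5 (0.79) also rose. The division genes Ccna1 (14.1 and 19.7), Cdc25c (8.77 and 9.06) and Aurkc (8.01 and 9.60) were called only in PS. Rfx2 was called in both PS libraries (17.9 and 21.9) and in c-Kit+ replicate 1 (6.15). Crem, Ythdc2 and Dazl were tested without a call, and Crem stood high at both stages (35.5 and 41.6 in PS, 22.2 and 16.3 in c-Kit+ cells).

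Of 16 piRNA pathway genes, 14 (87.5%) were called in both PS libraries and 1 (6.25%), Rnf17, in both c-Kit+ libraries, against 12837 and 10046 of all 17830 genes. Rnf17 rose (16.8 and 20.3 against 5.68 and 5.83, log2 change 0.60, limma adjusted p = 0.0386). Piwil1, the PIWI protein that binds pachytene piRNAs (29.0 and 35.7), Tdrd6 (19.1 and 29.3), Tdrd9 (24.8 and 28.3) and Asz1 (11.8 and 10.1) were called only in PS. For 9 others, among them Piwil2, Ddx4, Mael and Mov10l1, the only c-Kit+ peak was in replicate 1, at 3.31 to 6.62. Piwil4 and Tdrd7 had no peak. Apart from Rnf17, every c-Kit+ call in the list came from replicate 1, the c-Kit+ library with more peaks.

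Genes for spermatid and sperm products already carried H3K27ac in PS. Of 24, 13 were called only in both PS libraries, 3 rose and none fell, and all 13 were also called in both RS KO libraries and in neither c-Kit+ WT library. Of all 1817 genes called only in both PS libraries, 1398 were in both RS KO libraries and 1619 in neither c-Kit+ WT library. The sperm glycolysis genes Ldhc (23.3 and 33.1), Pgk2 (10.7 and 14.4) and Gapdhs (12.6 and 6.93), Acr for the protease acrosin (22.1 and 24.5) and Akap4 of the fibrous sheath (12.6 and 11.7) were among the 13. So were Prm1 (12.2 and 5.87), Tnp1 (11.1 and 6.40) and Odf1 (16.02 and 8.00), with higher values in replicate 1 than in replicate 2. Prm2 and Prm3 share 1 region (19.8 and 9.06; chromosome 16, 10787931 to 10794564), which also holds the start of Tnp2 (10788655). Tnp2 is not among the 13, because it was read at a neighbouring region (10782966 to 10787829) called in all 4 libraries. That region had no call of a change (limma adjusted p = 0.097). Tcp11 rose from 5.20 and 4.08 to 26.7 and 30.9 (log2 change 1.56, limma adjusted p = 0.000151), Zpbp by 1.02 and Odf2 by 0.91. With equal numbers of peaks 12 of the 24 were called only in PS. By symbol, flagellum genes (Cfap, Dnah, Tekt, Spag, Rsph) had a like count, with 13 of 31 called only in PS, 3 rises and no fall.

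**Figure D3:**
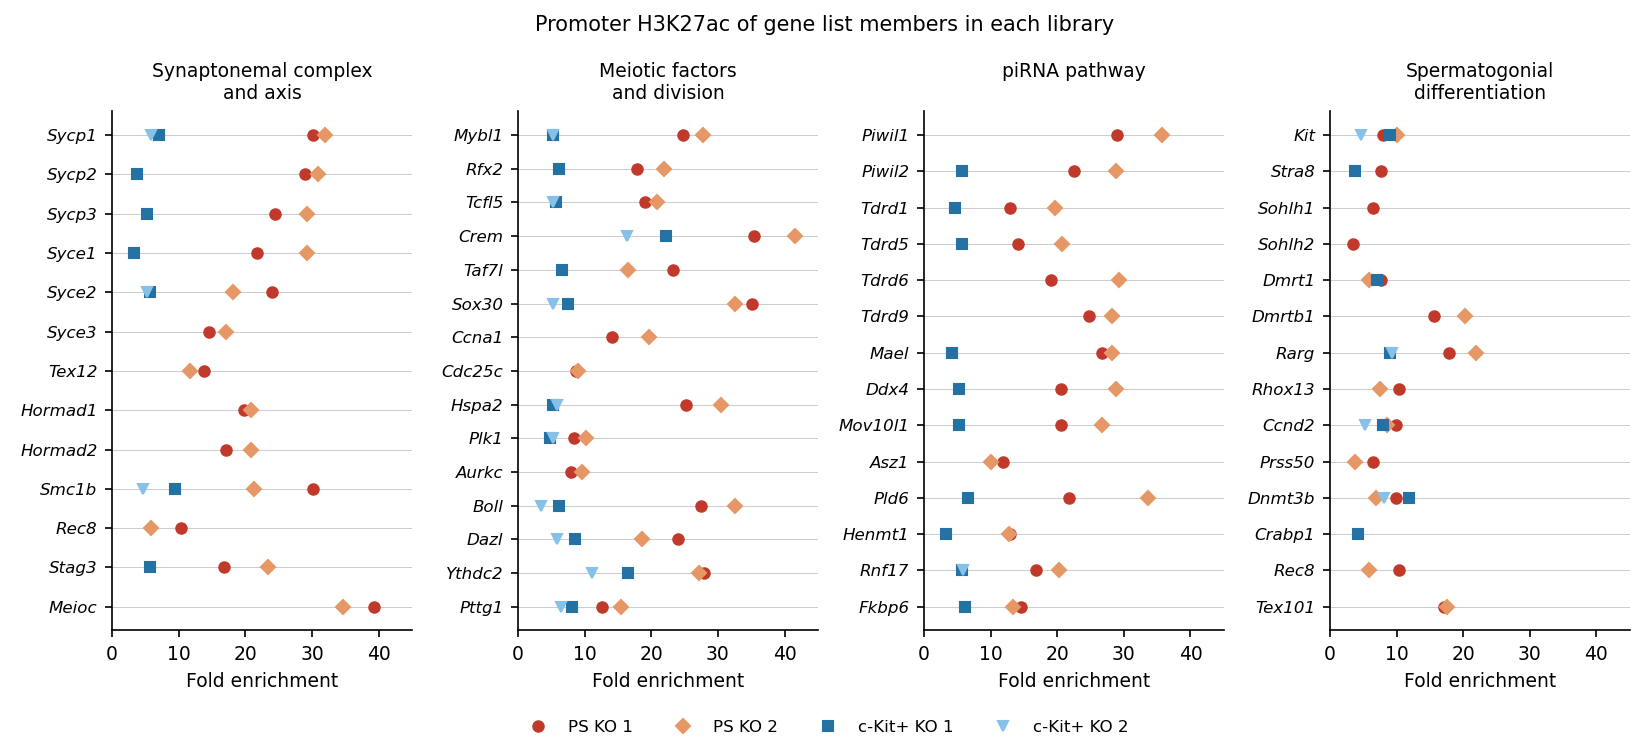
Fold enrichment at the promoter (x axis) of each list member with a peak, in PS KO replicates 1 and 2 and c-Kit+ KO replicates 1 and 2; no symbol means no peak in that library. At Piwil1 only the PS points (29.0 and 35.7) are present, while at Kit the PS points (8.01 and 10.1) lie on both sides of c-Kit+ replicate 1 (8.99).

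Spermatogonial genes did not show the mirror image. Of 18 stem and progenitor genes none rose or fell, 4 (Etv5, Uchl1, Foxo1, Taf4b) were tested without a call, and Gfra1, Lhx1, Nanos2, Eomes and Pax7 had no peak at either stage. Id4 was called in both PS libraries (13.7 and 19.7) and in c-Kit+ replicate 1 (3.78). Of 14 differentiation genes 2 fell and 5 were called only in both PS libraries. Kit was marked at both stages, at 8.01 and 10.1 in PS and 8.99 and 4.66 in c-Kit+ cells (log2 change −0.60, limma adjusted p = 0.0553, 0.48 without centring). Dnmt3b, a de novo DNA methyltransferase gene, fell (9.91 and 6.93 in PS, 11.8 and 8.16 in c-Kit+ cells, log2 change −1.32, limma adjusted p = 0.000681), though its deposited values overlap. Ccnd2 fell after centring (−0.58, limma adjusted p = 0.0417) and was 0.50 without it. Dmrtb1 (15.6 and 20.3), Rhox13 (10.3 and 7.46), Tex101 (17.2 and 17.6), Prss50 and Rec8 were called only in PS.

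Genes of the mitotic cell cycle, of Polycomb complexes and of acetylation are read against all genes, of which 7646 of 9932 tested had no call of a change. Of 25 cell cycle genes 20 of the 23 tested had no call, Cdk2 (0.82) and Mcm7 (0.70) rose, and Ccnd2 fell. Of 26 Polycomb genes 17 of the 22 tested had no call, a share like that of all genes. Pcgf1 (0.67), Cbx7 (0.94) and Suz12 (0.71) rose, and Pcgf2 (−0.60) and Pcgf3 (−0.54) fell, both of them positive without centring (0.48 and 0.54). Of 22 genes for acetylation writers, erasers and readers all 17 tested had no call. Brdt, the testis bromodomain protein that reads acetylated histones, was called only in PS (17.5 and 25.1).

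Markers of somatic testis cells were read as a check on both populations. Of 9 listed Sertoli markers, 8 were called in each PS library and 7 and 4 in the c-Kit+ libraries, with summed fold enrichments of 80.1 and 104.5 in PS and 52.5 and 27.98 in c-Kit+ cells. Of 10 Leydig and stromal markers, 7 were called in each PS library (49.96 and 53.9) and 8 and 5 in c-Kit+ cells (53.9 and 27.98). Of 9 listed peritubular, vascular and immune markers, 5 and 4 were called in PS (26.7 and 26.1) and 3 and 1 in c-Kit+ cells (17.0 and 6.41). Among these, Pecam1 and Cd68 were called in both PS libraries only, Csf1r in PS replicate 1 and Cdh5 in all 4 libraries. The remaining calls were at Acta2, Myh11 and Tagln, none of which was called in both libraries of a stage. In c-Kit+ cells these remaining calls were all in replicate 1. Cyp17a1, Hsd3b1, Cx3cr1 and Ptprc were called in none of the 4. Lhcgr, the luteinizing hormone receptor gene of Leydig cells, fell from 8.04 and 5.83 to 3.81 and 4.80 (log2 change −1.76, limma adjusted p = 0.000111). Dcn, for the matrix protein decorin, fell from 8.04 and 4.08 to 3.43 and 4.27 (log2 change −1.66, limma adjusted p = 0.000251). Amh rose (0.76), and Gata4 (−0.996) and Nr2f2 (−0.64) were called lower but were 0.081 and 0.44 without centring. The part of other cell types in the falls at Lamb1, Met, Lhcgr and Dcn was not tested.

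The X chromosome was described apart from the autosomes because it is silenced at the pachytene stage. It held 1948 of the regions, of which 488 (25.1%) were called only in both PS libraries, against 19.9% to 22.9% on single autosomes. Called distal regions on X numbered 645 and 1021 in PS and 129 and 54 in c-Kit+ cells, 1.36% and 2.57% of distal calls in PS and 0.753% and 0.823% in c-Kit+ cells (exact permutation p = 0.333). PS replicates differed here by more than c-Kit+ replicates. Promoters called on X had median fold enrichments of 7.63 and 8.00 in PS where autosomal ones had 13.4 and 15.5, and of 6.62 and 5.83 in c-Kit+ cells where autosomal ones had 9.46 and 7.58. Of 250 X-linked promoters called in all 4 libraries, 15 rose and 67 fell, and the median centred change was −0.29, below the range over single autosomes of −0.16 to 0.03. The 32 tested distal regions on X had a median of −0.40, above the range over autosomes of −0.79 to −0.43. Without centring the median of the X-linked promoters was 0.79, so they too had higher deposited values in PS. The Y chromosome was not compared.

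**Figure D4:**
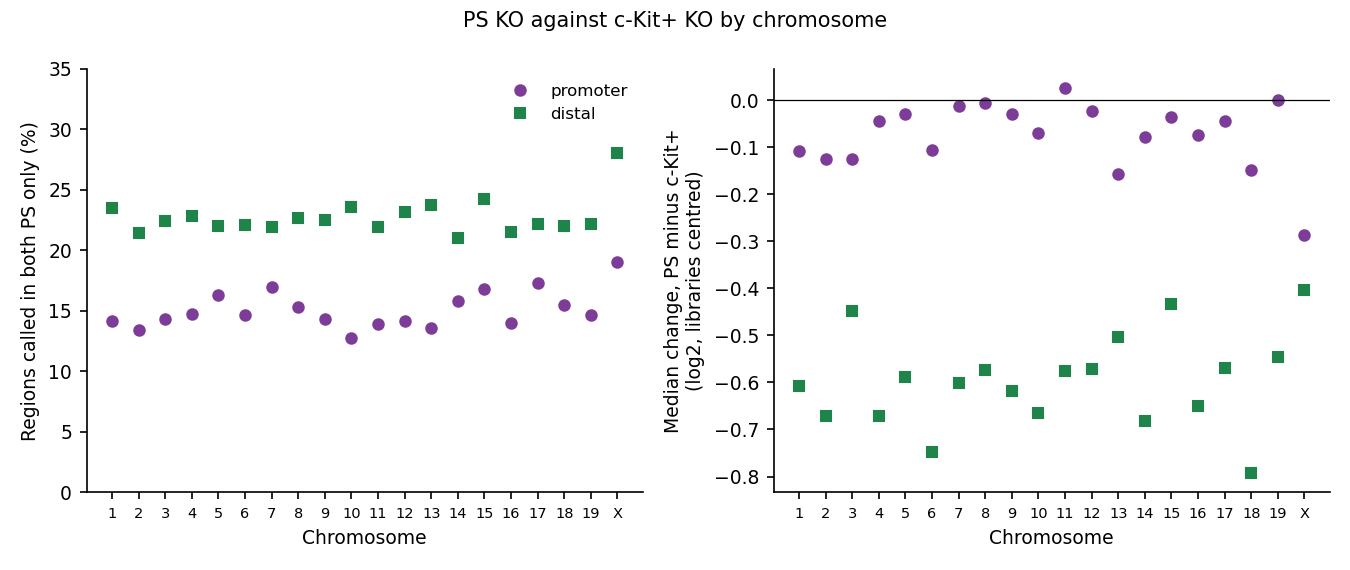
Share of regions called in both PS and neither c-Kit+ library (left) and median centred log2 change of regions called in all 4 libraries (right) for each autosome and X, with promoter regions as circles and distal regions as squares. X has the highest share of PS-only regions at both, and its promoter median of −0.29 lies below all autosomes.

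Libraries outside the comparison were used to see where else the regions are marked. The 12 H3K27ac libraries of the series held from 17877 to 73316 peaks, and such shares depend on that number. Regions called only in PS were chosen for having no call in c-Kit+ KO cells. Low shares in other spermatogonial libraries therefore follow in part from the choice. Promoters called only in both PS libraries were called in both RS KO libraries in 68.4% of cases, in both Thy1+ KO libraries in 6.01%, and in both c-Kit+ WT and both Thy1+ WT libraries in 1.40% and 2.34%. For distal regions these shares were 42.6%, 2.07%, 0.389% and 0.490%. Counted in at least 1 library of a group, the promoter shares were 82.7%, 26.1%, 10.5% and 10.3% in the same order. The distal ones were then 59.3%, 11.1%, 6.02% and 3.08%. The 784 promoters that rose were in both RS KO libraries without exception. Promoters called only in c-Kit+ KO cells were in both c-Kit+ WT libraries in 38.5% of cases and in both RS KO libraries in 8.97%, and distal ones in 17.2% and 4.62%. For comparison, regions called in all 4 libraries were in both libraries of these groups in 92.8% to 96.9% of cases at promoters, and distally in 39.0% (Thy1+ WT), 63.3% (c-Kit+ WT), 56.2% (Thy1+ KO) and 60.6% (RS KO).

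**Figure D5:**
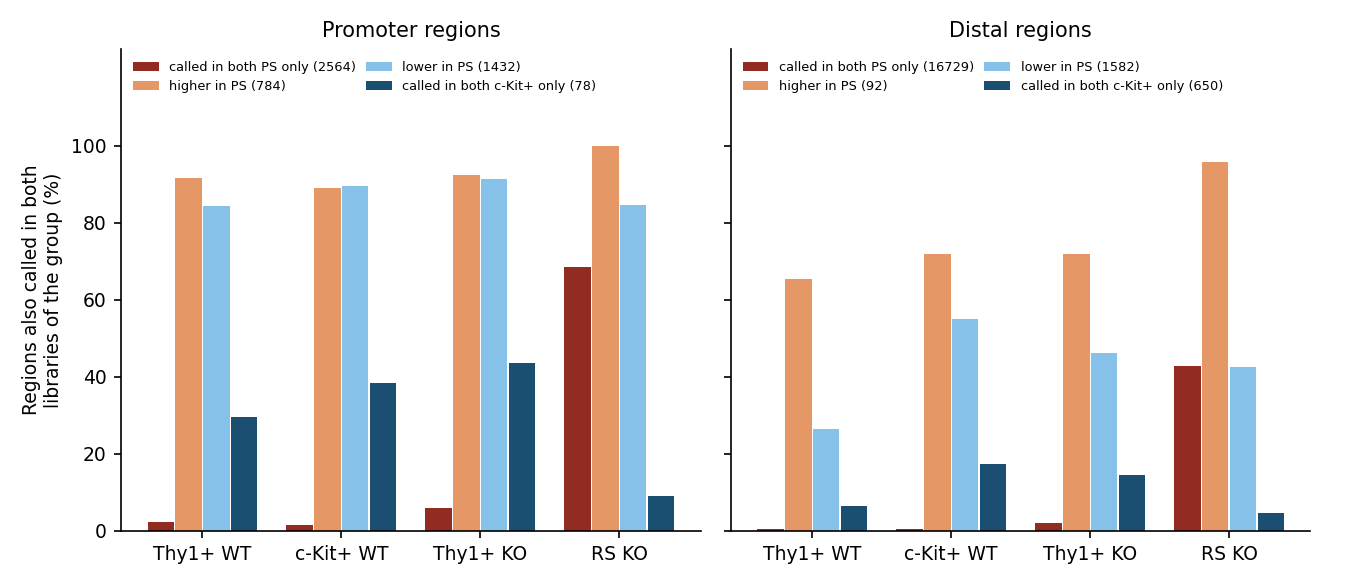
Share of regions of each class (y axis, percent) that were also called in both libraries of the H3K27ac groups outside the comparison, Thy1+ WT, c-Kit+ WT, Thy1+ KO and RS KO (x axis), for promoter (left) and distal (right) regions. Bars for regions called only in PS, which were chosen for no call in c-Kit+ KO cells, are near the floor in all spermatogonial groups. They reach 68.4% and 42.6% in RS KO.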

How the data were processed

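H3K27ac was measured by ChIPmentation, in which a transposase adds the sequencing adapters to immunoprecipitated chromatin, per the labels' protocols. Bowtie, MACS2 and the mm10 build are named in the submitters' processing notes, without versions or settings. Each library had its own peak table, so replicates were not pooled. Per the file headers, a peak has a signal height (pileup), fold enrichment, and p-value and q-value as −log10. The fold enrichment deposited by the authors is a ratio of height plus 1 to a background height plus 1 that was constant within each library. Read depth is unknown, so no interval that needs counts is given.

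Peaks of the 4 libraries that shared at least 1 bp were merged. A library's value is its highest fold enrichment in the region. Mitochondrial peaks and regions called in any of 16 inputs were left out. Regions called in all 4 libraries were tested on log2 fold enrichment, each library centred on its median, with limma 3.58.1 (R 4.3.3) and Benjamini-Hochberg adjustment. Only these 4 libraries entered the fit. Single values were compared by 2-sided exact permutation tests. Named regions are the 5 largest rises and falls whose deposited values do not overlap, and the 5 highest regions called only in both libraries of a stage, at most 1 per nearest gene, promoter and distal apart, with the 5 genes nearest to the most PS-only distal regions and the list members. Members, lists and this rule were chosen with earlier results of these data known. The fitting script was tested on simulated data. Promoter sequences came from a RefSeq table of GRCm38.p6, as did the starts of 9 list members; the other 209 with a start had it from the deposited tables, and 5 had none. Alternatives were scaling, peak selection, joining, overlap, inputs, promoter definition, a replicate block and leaving out each library. Other steps used Python 3.11.15, numpy 2.4.6 and pandas 2.3.3.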

Additional observations from a re-analysis of the deposited data

How the results depend on the processing

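Counts are given in the order promoter higher, promoter lower, distal higher, distal lower and all changed, which were 784, 1432, 92, 1582 and 3890. Quantile normalization gave 201, 164, 42, 78 and 485, and no centring 7530, 39, 1278, 47 and 8894. Of the 485, 473 were among the 3890. With peaks of a −log10 q of at least 5, promoter higher was 490, distal higher 31, distal lower 359 and all changed 1968. With the same number of strongest peaks distal lower was 613. With uncalled libraries at their lowest value, promoter lower was 460, distal higher 992 and distal lower 3277. Leaving out each library in turn gave 0 to 1078, 0 to 1369, 0 to 112, 0 to 1970 and 0 to 4529. The 0 came without c-Kit+ KO replicate 2 (5653 regions at an unadjusted p under 0.05). In that fit the lone c-Kit+ library is assumed to vary as the PS libraries do.

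Regions called only in PS numbered 2564 at promoters and 16729 distally, and only in c-Kit+ cells 78 and 650. With peaks of a −log10 q of at least 5, the distal PS count was 7716 and the c-Kit+ counts 28 and 65. With the same number of strongest peaks they were 1323 and 4231, and 237 and 1045. Leaving out each library gave 2646 to 5163 and 17189 to 42923, and 91 to 553 and 812 to 8740. The planned overlap of 50 percent of the shorter of peak and region is always met by merged peaks and changed nothing. With a library called only where its peaks cover 50 percent of the region, an alternative chosen after seeing the data, 5175 promoters were called only in PS. The median differences before centring, 1.11 at promoters and 0.37 distally, ranged from 0.92 to 1.39 and from 0.33 to 0.62 without each library, and the distal one was 0.72 with the stricter peaks. The promoter share difference was −3.87 points with equal numbers of peaks.

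Without centring the log2 changes of Mnd1 (0.14), Kit (0.48), Ccnd2 (0.50), Pcgf2 (0.48), Pcgf3 (0.54), Gata4 (0.081) and Nr2f2 (0.44) turned positive, and that of Pcgf2 was 0.27 with peaks within 1000 bp joined. Under quantile normalization 19 of the named regions and list members followed here lost their call, and 30 kept their status. The cause of these differences was not tested. By construction, centring removes a shift of the medians, and quantile normalization also removes a difference in spread.

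With the replicate block, 3698 regions changed, 795 higher and 2903 lower, and 3633 were shared with the fit without it. Same-numbered libraries share only a number: the correlation of their deviations over 12290 regions was 0.021. Having 2 libraries per group and an unknown depth limit every count here.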

Other observations

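Families that were not part of the comparison of germ cell genes were read the same way. Of 84 ribosomal protein genes, 28 (33.3%) fell relative to the median region, against 7.81% of all genes with a listed start. None rose and 49 had no call. The median change of the 77 tested was −0.33, or 0.75 without centring. The median tested ribosomal promoter was thus higher in PS on the deposited scale, by less than the 1.02 of all tested promoters. Of 338 zinc finger genes of the Zfp series, 73 (21.6%) fell and 20 (5.92%) rose, against 7.81% and 5.01% of all genes. Only tested genes can rise or fall, and 286 of the 338 were tested, against 9932 of all 17830. Several Adam protease genes encode sperm surface proteins. Of 27, 8 (29.6%) were called only in both PS libraries, against 10.2% of all genes, and 1 (3.7%) fell. Olfactory and vomeronasal receptor genes had no promoter peak in 108 of 117 cases, against 3631 of all 17830 genes.

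Hox genes have products that pattern the body axis, and they are Polycomb targets in many cells. Of 31, 16 had no promoter peak in any of the 4 libraries, against 3631 of all 17830 genes with a listed start. Hoxa4 (5.72 and 5.33), Hoxb4 (6.48 and 6.93), Hoxb5 (4.96 and 5.33) and Hoxb9 (5.72 and 5.87) were called only in both PS libraries, at low fold enrichment. In the Hoxd cluster, Hoxd3, Hoxd9 and Hoxd10 fell relative to the median region and Hoxd8 had no call. The values of Hoxd9 were 10.3 and 11.7 in PS and 13.7 and 9.91 in c-Kit+ cells, so the groups overlap on the deposited scale, and those of Hoxd3 were 9.53 and 10.7 against 9.46 and 9.33.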
